A study of Mus musculus with 7 samples.

Results

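The 5 genes Pramel1, Pramel4, Pramel5, Pramel6 and Pramel7 were followed in RNA-seq libraries of the mouse inner cell mass (ICM), the cells of the blastocyst that give rise to the epiblast and the primitive endoderm. They were taken by symbol from a table of 52636 genes, and all 5 passed the filter on low counts that left 16248 genes for testing. The set was picked because Pramel5 was lower in every library of embryos given tamoxifen, so the values of the 5 genes between tamoxifen and vehicle are described here and carry no test.

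Embryos of genotype Sox2Cre;CRAFR26 carried a tamoxifen-inducible form of the kinase cRAF, which activates ERK, in a mouse line made by injecting embryonic stem cells of clone 4 or clone 8 into morulas. All embryos were taken from the oviduct at embryonic day 2.5 and kept for 24 h in medium with 250 nM PD173074, an inhibitor of the FGF receptors, so the vehicle group had the inhibitor too. The tamoxifen group (4 libraries, 2 of each clone, time label 4 h) received 250 nM 4-hydroxytamoxifen. The vehicle group (3 libraries, 2 of clone 4 and 1 of clone 8, time label 0 h) received ethanol for 4 h, and a further vehicle sample had been discarded by the authors at quality control. Each library came from a pool of 10 ICMs after removal of the trophectoderm, the outer epithelium, by immunosurgery, and epiblast of embryonic day 3.5 is the cell type given in the labels. The name Sox2Cre denotes a Cre recombinase driven by Sox2. Libraries are named by group, clone and number.

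The Prame family is named after a human tumour antigen and consists of leucine-rich repeat proteins, many of which are expressed in the germline and the early embryo. Several act as substrate receptors of ubiquitin ligases built on Cullin 2. Pramel7 is known from the ICM and from embryonic stem cells, where it directs the degradation of Uhrf1, the protein that brings the maintenance DNA methyltransferase Dnmt1 to replicating DNA, and its expression responds to the cytokine LIF through Stat3. The family expanded by gene duplication, and many of its genes lie side by side.

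Pramel4 and Pramel5 are such a duplicated pair. In GENCODE M21 (GRCm38), Pramel4 (ENSMUSG00000073724) spans positions 144059126 to 144069327 of chromosome 4 on the plus strand and Pramel5 (ENSMUSG00000036749) positions 144270633 to 144280488 on the minus strand. Pramel1 (ENSMUSG00000041805) lies on the same chromosome, at 143394428 to 143400160 on the plus strand. Pramel6 (ENSMUSG00000025838; 87506565 to 87510872, plus strand) and Pramel7 (ENSMUSG00000025839; 87489087 to 87497093, minus strand) are neighbours on chromosome 2. All 5 are protein-coding, and none overlaps another annotated gene. In the transcript of Pramel4, 2136 bases could be aligned with that of Pramel5 at 94.9% identity. For Pramel6 and Pramel7, the other pair of neighbours, a local alignment reached 280 bases at 76.8% identity.

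The similarity of Pramel4 and Pramel5 extends upstream of their start sites. The 250 bases before the RefSeq start of each are shown because these genes had the same pattern over the libraries and because the windows share a sequence element. They are written 5′ to 3′ on the strand of the gene, for Pramel4 at chr4:144058875-144059124 (plus strand) and for Pramel5 at chr4:144280467-144280716 (minus strand) of GRCm38.p6, and capitals mark a CArG box, the element bound by serum response factor.
Pramel4: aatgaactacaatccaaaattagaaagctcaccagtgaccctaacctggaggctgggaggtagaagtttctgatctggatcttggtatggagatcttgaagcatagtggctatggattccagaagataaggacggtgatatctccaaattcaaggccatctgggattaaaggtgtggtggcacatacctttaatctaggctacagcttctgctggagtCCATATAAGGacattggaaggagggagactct
Pramel5: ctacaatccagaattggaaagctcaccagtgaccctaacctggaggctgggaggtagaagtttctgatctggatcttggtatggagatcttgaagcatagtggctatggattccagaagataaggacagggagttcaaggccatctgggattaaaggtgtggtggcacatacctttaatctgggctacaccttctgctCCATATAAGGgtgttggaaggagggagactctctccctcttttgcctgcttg

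A local alignment of these windows covered 230 bases at 95.7% identity, with 10 mismatches and 14 bases in 2 blocks that were absent from Pramel5. The element CCATATAAGG, one form of the CArG box, began 32 bases before the RefSeq start of Pramel4 and 52 bases before that of Pramel5. A CArG box on either strand was present in 1.47% of 32851 RefSeq windows of the same length, and the exact letters CCATATAAGG in 0.067%. Of 43 windows of Prame family genes, 2 held a CArG box, those of Pramel4 and Pramel5. The exact letters were taken from the window of Pramel5, so nothing is read from how rare they are. These 2 windows are near copies and do not count as separate occurrences. The windows of the 5 genes were also searched on both strands for TTCNNNGAA (the Stat element, in 7.02% of all windows), CCGGAAGT (an ETS element, 2.88%), TGANTCA (a loose form of the AP-1 element with any middle base, 6.75%) and TATAAA (12.4%). One match was found, to TGANTCA in the window of Pramel6, beginning 110 bases before its start. Its letters were TGATTCA, not the AP-1 consensus TGACTCA or TGAGTCA. The letters TATAAG inside CCATATAAGG were not counted as a match to TATAAA. The windows end at the RefSeq start, which can differ from the GENCODE start. That of Pramel7 (chr2:87492419-87492668) lies inside its GENCODE gene, so the sequence before its GENCODE start was not searched. Those of Pramel1 and Pramel5 end inside their GENCODE genes. The distance of the CArG box from the start of Pramel5 therefore depends on the annotation, and its difference from that of Pramel4 is not read as a difference in spacing. The motifs were chosen after the sequences had been seen, and a match of letters does not show that a factor binds there.

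How far reads can be assigned to 1 member depends on how much of its transcript also occurs in other genes. The longest coding transcript of each member was compared in windows of 50, 75 and 100 nt with all other GENCODE M21 genes, on both strands. Of the windows of Pramel4, 92.8% were shared at 50 nt and 87.1% at 100 nt, nearly all of them with Gm13102, a protein-coding gene at 144106474 to 144110101 of chromosome 4 (plus strand) that shared 91.4% and 86.9%. Pramel5 shared 27.1% of its windows at 50 nt, 13.1% at 75 nt and 4.05% at 100 nt, the largest part with Pramel4 (23.7% at 50 nt). Pramel1 and Pramel6 shared 0% at each length, and Pramel7 shared 0.442% at 50 nt and 0% at the others. The counts of Pramel6, Pramel7 and Pramel1 were therefore little exposed to cross-mapping between annotated genes, those of Pramel5 partly, and those of Pramel4 almost entirely. Read length and the handling of reads with several hits are not given in the sources used here.

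**Figure D1:**
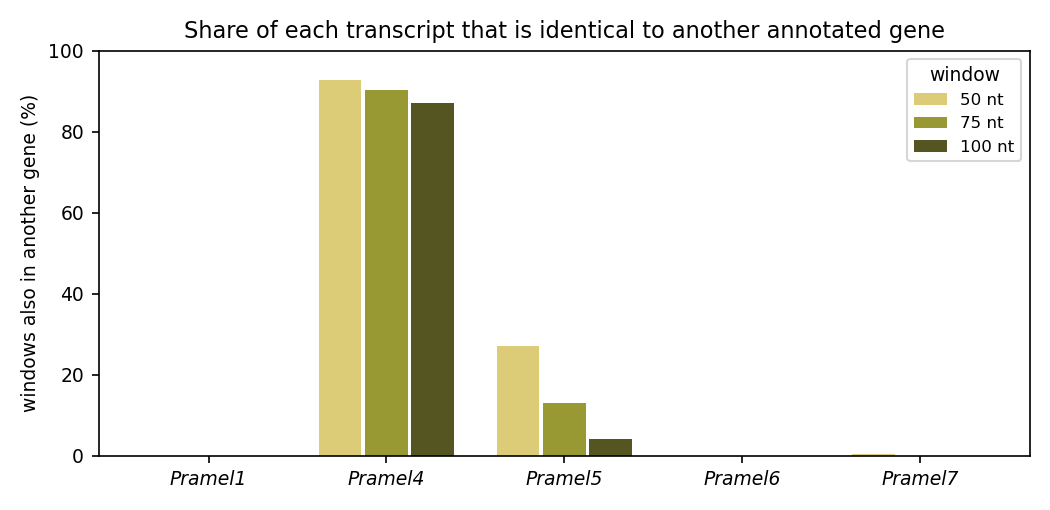
Share of sequence windows of each member's longest coding transcript (vertical axis, %) that also occur in a transcript of another annotated gene, for windows of 50, 75 and 100 nt (bars). Pramel4 lies between 87.1% and 92.8%, Pramel5 between 4.05% and 27.1%, and the other 3 genes at or close to 0%.

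The libraries held 22981498 to 42294719 counts, and levels are given in CPM, counts scaled to the library total with TMM factors. Vehicle clone8_1 stood apart: for 1162 tested protein-coding genes whose typical transcript is shorter than 1000 nt it had a median log2 deviation of -1.29 from the median library, where the other libraries had -0.04 to 0.22. Among 5078 genes of 1500 nt to under 3000 nt, the class that holds the 5 members (1660.5 to 2794 nt), its deviation was 0.06. Naive epiblast markers were present (summed level of the 10 markers 2941 to 5371 CPM in vehicle and 4573 to 6438 CPM in tamoxifen libraries). Much of this sum came from Dppa5a, which had 562 CPM in vehicle clone8_1, the library with the lowest sum, and 2503 to 4359 CPM elsewhere. The 10 trophectoderm markers summed to 8790 to 11490 CPM in vehicle and 6735 to 9772 CPM in tamoxifen libraries, much of it from the keratin genes Krt18 (1969 to 4127 CPM) and Krt8 (2250 to 3837 CPM). None of the 10 trophectoderm markers was at 0, and Cdx2 lay between 324 and 543 CPM, so the libraries were not free of these transcripts. Whether they came from remaining trophectoderm or from cells of the ICM was not tested. The 10 primitive endoderm markers summed to 804 to 1105 CPM in vehicle and 842 to 979 CPM in tamoxifen libraries, with Foxa2 and Sox7 below the filter.

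Over the whole table, edgeR's quasi-likelihood test called 0 of 16248 genes between tamoxifen and vehicle at a Benjamini-Hochberg adjusted p under 0.05 (0.00%), with 970 genes at an unadjusted p under 0.05 (5.97%), and DESeq2 called 4 genes. The smallest adjusted p of any gene in the edgeR test was 0.794. All values below for the 5 members in this comparison are to be read against that background.

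Pramel5 had the lowest tamoxifen levels relative to vehicle among the 5 genes. In the vehicle libraries it had 379 CPM in clone4_1, 419 CPM in clone4_2 and 442 CPM in clone8_1. With tamoxifen it had 268 CPM in clone4_1, 223 CPM in clone4_2, 179 CPM in clone8_1 and 274 CPM in clone8_2. The groups did not overlap, and the highest tamoxifen library lay well below the lowest vehicle library. The vehicle mean was 414 ± 31.6 CPM (SD, n = 3), the tamoxifen mean was 236 ± 44.5 CPM (SD, n = 4), and the log2 fold change was -0.81 ± 0.18 (SE), that is 1.75-fold lower with tamoxifen. Raw counts ranged from 4945 to 18126, so counting error was small beside the spread between libraries. Fewer cells of a type and less RNA per cell cannot be told apart in such pools.

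Pramel4 followed Pramel5. Its vehicle levels were 201 CPM in clone4_1, 223 CPM in clone4_2 and 207 CPM in clone8_1. Its tamoxifen levels were 146 CPM in clone4_1, 130 CPM in clone4_2, 93.8 CPM in clone8_1 and 156 CPM in clone8_2. The groups again did not overlap, and tamoxifen clone8_1 was the lowest library for both genes. The vehicle mean was 210 ± 11.5 CPM (SD, n = 3), the tamoxifen mean was 131 ± 27.1 CPM (SD, n = 4), and the log2 fold change was -0.68 ± 0.19 (SE). Pramel4 and Pramel5 were the 2 of 5 members with every tamoxifen library below every vehicle library, a pattern that 4.74% of all tested genes had. Nothing is read from that count, since the set was picked from this comparison.

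Because reads of Pramel4 could have gone to its copy, both were also combined. Gm13102 itself had 55.1 to 68.5 CPM in vehicle and 34.6 to 52.9 CPM in tamoxifen libraries, without overlap. Pramel4 and Gm13102 counted as 1 gene gave a log2 fold change of -0.63 ± 0.18 (SE). With Pramel5 added, the sum was 640 CPM, 711 CPM and 703 CPM in vehicle clone4_1, clone4_2 and clone8_1. It was 465 CPM, 406 CPM, 308 CPM and 464 CPM in tamoxifen clone4_1, clone4_2, clone8_1 and clone8_2, a log2 fold change of -0.74 ± 0.18 (SE). These sums were chosen after seeing the data. Up to 5.24% of the 50 nt windows of Pramel4 or Pramel5 were also shared with any 1 further gene, the most with Pramef6, and the part of shared reads in these levels was not tested.

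Pramel6, the most abundant member, differed less. It had 412.5 CPM, 483.5 CPM and 594 CPM in vehicle clone4_1, clone4_2 and clone8_1. In tamoxifen clone4_1, clone4_2, clone8_1 and clone8_2 it had 396.5 CPM, 484.5 CPM, 344 CPM and 415 CPM. The groups overlapped, and the highest library was vehicle clone8_1. The vehicle mean was 497 ± 91.2 CPM (SD, n = 3), the tamoxifen mean was 410 ± 58.0 CPM (SD, n = 4), and the log2 fold change was -0.28 ± 0.18 (SE). Without vehicle clone8_1 the log2 fold change was -0.14, and within clone 4 it was -0.03.

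Pramel7, the partner of Cullin 2 in the turnover of Uhrf1, also had overlapping groups. Its vehicle levels were 376 CPM in clone4_1, 217 CPM in clone4_2 and 358 CPM in clone8_1. The tamoxifen libraries were close together, with 276 CPM in clone4_1, 245 CPM in clone4_2, 239 CPM in clone8_1 and 233 CPM in clone8_2. Vehicle clone4_2 lay below all tamoxifen libraries and the other vehicle libraries lay above all of them. The vehicle mean was 317 ± 87.0 CPM (SD, n = 3), the tamoxifen mean was 248 ± 19.2 CPM (SD, n = 4), and the log2 fold change was -0.35 ± 0.20 (SE), which ranged from -0.57 without vehicle clone4_2 to -0.23 without vehicle clone4_1.

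Pramel1, which is studied mainly in the male germline, was near the limit of detection. It had 22, 65 and 12 counts in vehicle clone4_1, clone4_2 and clone8_1, which is 0.546 CPM, 2.02 CPM and 0.292 CPM. The tamoxifen libraries had 22 to 48 counts and 0.795 to 1.14 CPM, inside the vehicle range. The log2 fold change of -0.01 ± 0.73 (SE) became 1.16 when vehicle clone4_2 was left out, so 1 library set its value.

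**Figure D2:**
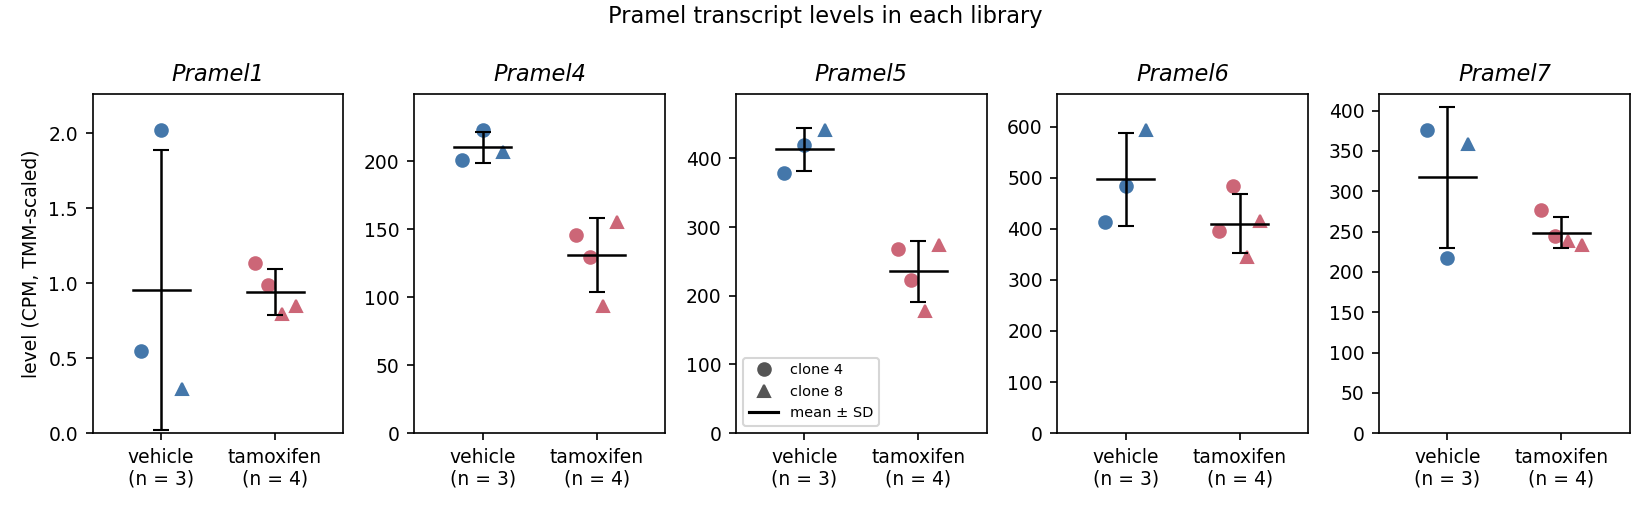
Level of each member (vertical axes, TMM-scaled CPM, each from 0) in the 3 vehicle (blue) and 4 tamoxifen (red) libraries, with circles for clone 4, triangles for clone 8 and bars for the mean ± SD. Pramel4 and Pramel5 do not overlap between groups, while Pramel1, Pramel6 and Pramel7 do.

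The median log2 fold change of the 5 members was -0.35 and the median over all genes 0.02, values from which nothing is read, since the set was picked from this comparison. Relative to vehicle, the mean tamoxifen level was 57.1% for Pramel5, 62.4% for Pramel4, 78.3% for Pramel7, 82.6% for Pramel6 and 98.8% for Pramel1. Summed over the 5 genes, the family took 0.137%, 0.135% and 0.160% of counts in vehicle clone4_1, clone4_2 and clone8_1. With tamoxifen the share was 0.109% in clone4_1, 0.108% in clone4_2, 0.0856% in clone8_1 and 0.108% in clone8_2, and the groups did not overlap. Of this sum, Pramel5 made up 27.6% to 31.2% without tamoxifen and 20.6% to 25.4% with it. Nothing is read from these shares either, since the sum holds the gene on which the set was picked.

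**Figure D3:**
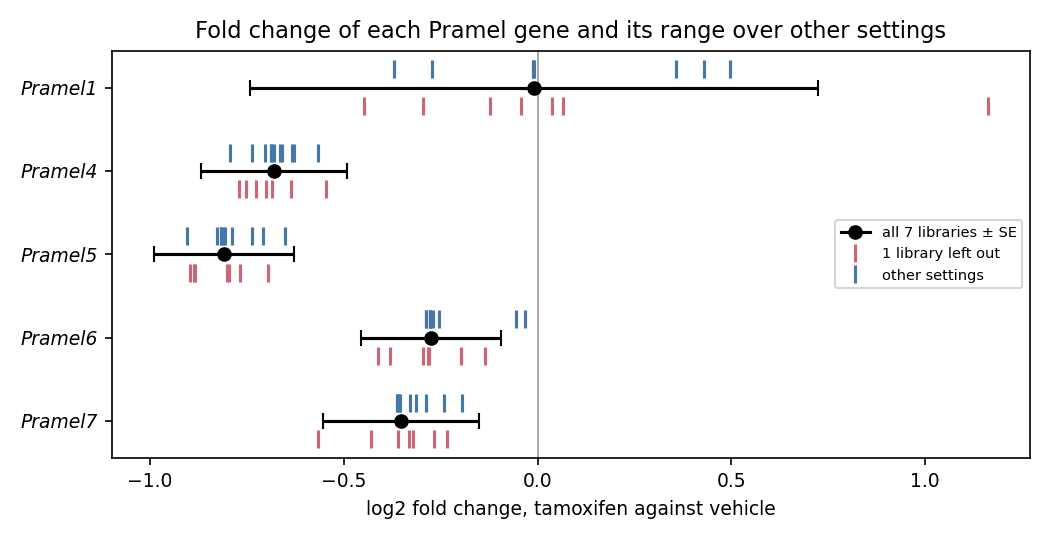
Log2 fold change of each member, tamoxifen against vehicle (horizontal axis), from all 7 libraries with its SE (black), with 1 library left out (red ticks) and under the other settings (blue ticks). The ticks of Pramel5 lie between -0.91 and -0.65 and those of Pramel4 between -0.80 and -0.55, those of Pramel6 and Pramel7 lie below 0, and those of Pramel1 lie on both sides of 0, from -0.45 to 1.16.

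Per kilobase of transcript, the vehicle levels were in the order Pramel6 (299 CPM per kb), Pramel5 (197 CPM per kb), Pramel7 (170 CPM per kb), Pramel4 (91.5 CPM per kb) and Pramel1 (0.342 CPM per kb). Pramel6 (248 to 358 CPM per kb) lay above Pramel5 (180 to 210 CPM per kb) in all vehicle libraries. Pramel5 and Pramel7 (117 to 202 CPM per kb) overlapped there and could not be ordered beyond their spread. In the tamoxifen libraries Pramel6 remained highest (207 to 292 CPM per kb), Pramel7 (125 to 148 CPM per kb) and Pramel5 (84.9 to 130 CPM per kb) overlapped with their means in the opposite order (133 and 112 CPM per kb), and Pramel4 had 40.9 to 67.7 CPM per kb. Among 16217 genes with a length, the mean over the 7 libraries placed Pramel6 at rank 447, Pramel7 at 823, Pramel5 at 826, Pramel4 at 1649 and Pramel1 at 13819. Apart from Pramel1, the members were therefore among the more abundant transcripts of these libraries.

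Ratios of raw counts within a library do not depend on depth or scaling. Pramel5 over Pramel4 was 1.97 ± 0.146 without tamoxifen (SD, n = 3) and 1.81 ± 0.0819 with it (SD, n = 4), with overlapping ranges of 1.88 to 2.14 and 1.72 to 1.90. The coefficient of variation over the 7 libraries was 7.16%, so the duplicated pair kept nearly the same ratio throughout, while part of its reads could be shared. Pramel6 over Pramel7, the unambiguous pair, varied more, from 1.10 in vehicle clone4_1 to 2.23 in vehicle clone4_2 (coefficient of variation 22.7%). Pramel6 over Pramel5 was 1.09, 1.15 and 1.34 in the vehicle libraries and 1.48 to 2.17 in the tamoxifen libraries, without overlap. Nothing is read from this separation, since Pramel5 was picked for being lower in every tamoxifen library.

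**Figure D4:**
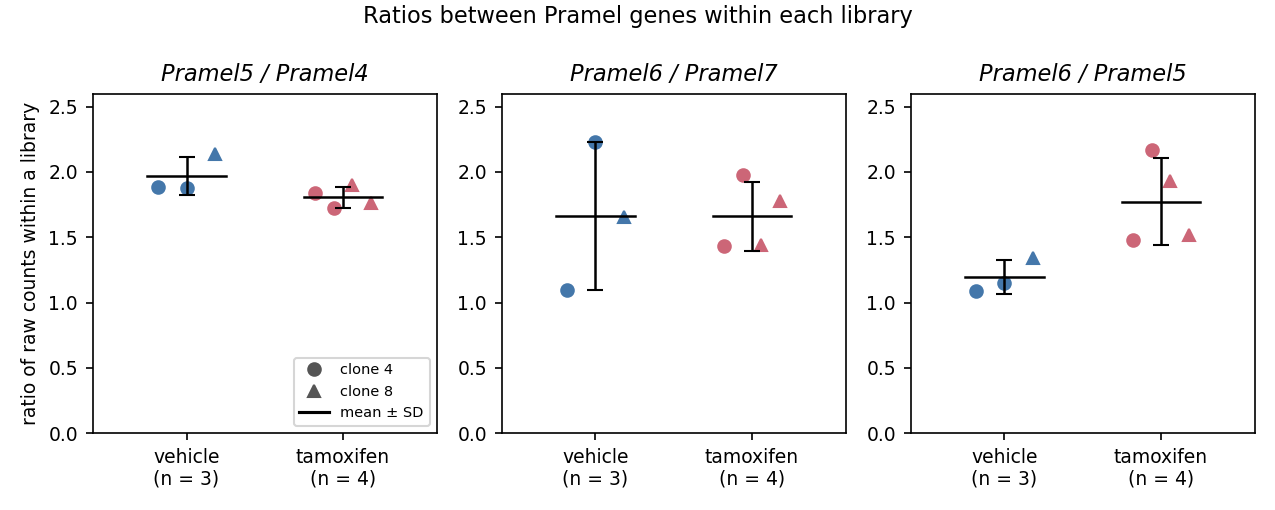
Ratio of raw counts of 2 members within each library (vertical axes) for Pramel5 over Pramel4, Pramel6 over Pramel7 and Pramel6 over Pramel5, with vehicle libraries in blue, tamoxifen libraries in red, circles for clone 4, triangles for clone 8 and bars for the mean ± SD. Pramel5 over Pramel4 stays between 1.72 and 2.14 in all 7 libraries, and Pramel6 over Pramel5 is at most 1.34 in the vehicle libraries and at least 1.48 in the tamoxifen libraries. The last separation goes with the choice of Pramel5.

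Within groups, log2 CPM had a standard deviation of 0.23 for Pramel5 and Pramel6, 0.26 for Pramel4, 0.29 for Pramel7 and 0.85 for Pramel1. The median over the 3926 genes with a mean of at least 50 CPM was 0.24, so the 4 abundant members varied about as much as other abundant genes. As a description over the 7 libraries, Pearson's r of log2 CPM was 0.98 between Pramel4 and Pramel5 and 0.95 after the group means were removed. Between Pramel6 and Pramel7 these values were 0.30 and 0.00, and between Pramel5 and Pramel6 they were 0.69 and 0.50. The libraries share their scaling factors across all of these values, and Pramel4 and Pramel5 share sequence.

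The genes whose log2 CPM over the 7 libraries was most like that of Pramel5, among genes with a mean of at least 10 CPM, were the zinc finger gene Zfp820 (r = 0.991), the mitochondrial ribosomal protein gene Mrps2 (r = 0.9904) and Msl3 (r = 0.989), which encodes a chromatin protein. Pramel4 was at rank 6 of 8052 in this order. Zfp820 had 28.0 to 30.6 CPM in vehicle and 17.4 to 24.6 CPM in tamoxifen libraries, and Msl3 had 52.2 to 64.3 CPM and 26.2 to 40.3 CPM. Mrps2 differed less, with 117 to 124 CPM and 93.9 to 110 CPM. Nothing is read from these separations, since Pramel5, which these genes were chosen to resemble, was picked for being lower in every tamoxifen library. For Pramel6 the most similar genes were Dnmt1 (r = 0.992), the Golgi gene Gorasp1 (r = 0.983) and the monoamine oxidase gene Maoa (r = 0.982). Dnmt1 had 62.2 to 81.7 CPM in vehicle and 49.7 to 69.8 CPM in tamoxifen libraries. For Pramel7 they were Ago3 (r = 0.982), an Argonaute gene, the ion channel gene Trpm7 (r = 0.964) and the mitochondrial thiolase gene Acat1 (r = 0.962). Likeness over 7 libraries was the only criterion, and these values were not tested.

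Whether the members differed between the clones is a question that the choice of the set did not use. With condition in the model, edgeR's quasi-likelihood test called 0 of 16248 genes between clone 8 and clone 4 after Benjamini-Hochberg adjustment (0.00%; 509 genes, 3.13%, at an unadjusted p under 0.05), and DESeq2 called 13. The log2 fold change of clone 8 against clone 4 was -0.01 ± 0.20 (SE) for Pramel5, -0.10 ± 0.20 (SE) for Pramel4, 0.04 ± 0.19 (SE) for Pramel6 and 0.03 ± 0.22 (SE) for Pramel7. Pramel1 had -1.002 ± 0.79 (SE). The adjusted p was 0.983 for Pramel1 and Pramel4 and at most 0.995 for the other members in the same edgeR test. The sign of these values for Pramel4, Pramel5, Pramel6 and Pramel7 changed when single libraries were left out, so no order of the clones was found for them.

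For Pramel4 and Pramel5 every tamoxifen library lay below every vehicle library. Their difference between tamoxifen and vehicle was therefore bound to be below 0 in both clones, and nothing is read from that sign. On the log2 CPM scale it was -0.71 for Pramel5 and -0.62 for Pramel4 in clone 4, and -0.997 and -0.77 in clone 8, which has 1 vehicle library. For Pramel6 it was -0.03 in clone 4 and -0.65 in clone 8, and for Pramel7 -0.14 and -0.60. An interaction of clone with condition passed an adjusted p of 0.05 in 514 of the 16248 genes tested with edgeR (3.16%; 14.8% at an unadjusted p under 0.05), and in 0 of the 5 members. Its log2 value was largest in size for Pramel1 at 1.75 ± 1.43 (SE, adjusted p = 0.622), followed by Pramel6 at -0.62 ± 0.28 (SE, adjusted p = 0.351; unadjusted p = 0.0554, edgeR). For Pramel5 it was -0.26 ± 0.35 (SE, adjusted p = 0.784, edgeR). The clone 8 side of each rests on vehicle clone8_1, and the count of 514 genes was 52 without tamoxifen clone4_2, 107 without tamoxifen clone4_1 and 267 without vehicle clone4_1.

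The other genes with a family name were far less abundant. Of 47 further genes with a Prame or Oog symbol, a list that does not hold Gm13102, 15 had no count in any library and 14 passed the filter. The highest of the list was Pramef8 (now Pramel12), at 13.3 to 38.1 CPM, and next came Pramef12 (now Pramel13), at 19.5 to 30.1 CPM, both on chromosome 4. None of the 14 was called by edgeR's quasi-likelihood test after Benjamini-Hochberg adjustment (smallest adjusted p 0.794), 10 had a log2 fold change below 0, and their median was -0.20. An unadjusted p under 0.05 was found for Gm13128 (now Pramel30), which averaged 17.2 ± 4.36 CPM over the vehicle libraries (SD, n = 3) and 11.2 ± 2.87 CPM over the tamoxifen libraries (SD, n = 4; log2 fold change -0.63; adjusted p = 0.794, edgeR). The other was Pramef20 (now Pramel15), at 0.529 ± 0.133 CPM (SD, n = 3) and 1.52 ± 0.706 CPM (SD, n = 4) (log2 fold change 1.51; adjusted p = 0.794, edgeR). Sequence shared among these genes was not measured here.

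**Figure D5:**
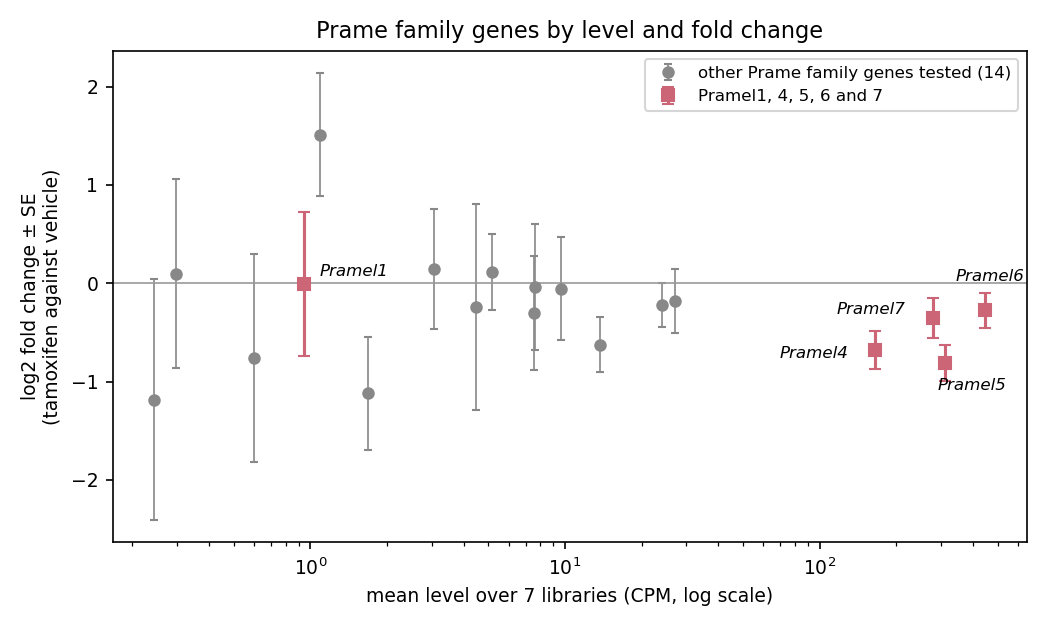
Log2 fold change, tamoxifen against vehicle, with its SE (vertical axis) against the mean level over the 7 libraries (horizontal axis, CPM, log scale) for the 5 members (red squares) and the 14 other tested genes with a Prame or Oog symbol (grey circles; Gm13102 is not among them). Pramel4, Pramel5, Pramel6 and Pramel7 lie above 150 CPM and Pramel1 and the 14 genes lie below 30 CPM.

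The genes around the known action of Pramel7 were taken from a list of 13 genes of the Cullin 2 ligase and of DNA methylation. All were tested and 0 were called by edgeR's quasi-likelihood test (smallest adjusted p 0.794), 7 with a log2 fold change above 0 and 6 below 0, with a median of 0.06. Uhrf1, the substrate of Pramel7, averaged 215 ± 40.9 CPM over the vehicle libraries (SD, n = 3) and 275 ± 63.3 CPM over the tamoxifen libraries (SD, n = 4). The groups overlapped, at a log2 fold change of 0.36 ± 0.22 (SE). On the log2 CPM scale the difference was 0.72 in clone 4 and -0.17 in clone 8, which has 1 vehicle library. Pramel7 acts on the Uhrf1 protein, which RNA levels do not measure. The scaffold Cul2 had a log2 fold change of -0.16 ± 0.24 (SE). The de novo methyltransferase gene Dnmt3b, the only one with an unadjusted p under 0.05 (0.0227, edgeR), was at 202 ± 36.2 CPM (SD, n = 3) and 139 ± 28.5 CPM (SD, n = 4), without overlap. Eloc, Elob and Rbx1, short subunit genes of the ligase, were lowest in vehicle clone8_1, at 386, 56.8 and 88.5 CPM, against at least 949, 321 and 284 CPM in every other library.

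Of 12 genes of the LIF and Stat3 pathway, 0 were called in the same edgeR test. The log2 fold change was above 0 in 5 and below 0 in 7 of them, with a median of -0.15. Klf4, a naive pluripotency factor, had an unadjusted p of 0.0305 (edgeR) and overlapped between vehicle (49.6 to 67.0 CPM) and tamoxifen libraries (62.7 to 92.8 CPM). Stat3 had a log2 fold change of -0.25 ± 0.22 (SE), and Tfcp2l1, the most abundant of the list, -0.11 ± 0.16 (SE).

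Over all tested genes, 48.3% had a log2 fold change below 0. Among the markers this held for 2 of 10 naive epiblast markers (median 0.44) and 2 of 8 tested primitive endoderm markers (median 0.50). Vehicle clone8_1 was lowest for the naive epiblast markers Dppa5a, Klf2 and Fgf4, but for none of the others. Dppa5a, the most abundant, had 562 CPM there and 2503 to 4359 CPM elsewhere, Klf2 had 14.4 CPM and Fgf4 8.60 CPM. Nanog was highest in that library, at 704.5 CPM against 427.5 to 639 CPM elsewhere. For Dppa5a the log2 difference was 0.21 in clone 4 and 2.56 in clone 8, while for Nanog it was 0.20 in clone 4 and -0.65 in clone 8. Of the primitive endoderm markers, Sox17 and Lama1 had an unadjusted p under 0.05 in the edgeR test. Both were higher with tamoxifen, at log2 fold changes of 2.58 ± 0.75 (SE) and 1.35 ± 0.36 (SE). Dab2, the most abundant, had a log2 fold change of -0.21 ± 0.16 (SE). All 10 trophectoderm markers had a log2 fold change below 0 (median -0.33), among them Krt18, the most abundant, at -0.25 ± 0.24 (SE). Gata3, Elf3 and Krt7 had an unadjusted p under 0.05 in the edgeR test. In Gata3, Tfap2c and Elf3, 3 of the 10, every tamoxifen library lay below every vehicle library, against 4.74% of all tested genes. All 10 tested genes of a list of 12 oocyte genes were below 0 as well (median -0.79), with the most abundant, Zp3, at -0.09 ± 0.41 (SE). In clone 4, however, the log2 difference was above 0 for Zp2 (1.09), Zp3 (0.27), Nlrp5 (2.90), Nlrp14 (1.07) and Npm2 (0.80). It was below 0 there for Zp1, Gdf9, H1foo, Zar1 and Padi6. Zp1, Nlrp5 and Nlrp14 had 93, 91 and 114 counts in vehicle clone8_1, against 0 to 12 in the clone 4 vehicle libraries. Apart from Zp3 and Padi6, no tested gene of the list had a group mean above 2.87 CPM. The summed level of the list was 10.4 to 36.5 CPM in vehicle and 10.9 to 19.1 CPM in tamoxifen libraries, with H1foo at 1.07 to 3.92 CPM and 0.108 to 0.758 CPM and Gdf9 at 0.893 to 3.61 CPM and 0.0971 to 0.819 CPM. None of these genes was called by edgeR's quasi-likelihood test (adjusted p of at least 0.794). The part of trophectoderm or oocyte RNA in the levels of Pramel4 and Pramel5 was not tested.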

How the data were processed

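RNA-seq of pooled ICMs was deposited by the authors as 1 table of raw read counts per gene. The submitters' processing notes name bcl2fastq 2.19.1, STAR 2.5.3a and the build mm10; the counter, strand setting and treatment of multi-mapping reads are not given in the sources used here. Of 52636 Ensembl identifiers, 52489 matched GENCODE M21. No label ties pools to separate litters, so p-values measure the spread between these libraries. Counts were tested with edgeR 4.0.16 (R 4.3.3): TMM factors, filterByExpr by group, quasi-likelihood fit on condition, then with clone and with their interaction, Benjamini-Hochberg over 16248 genes, threshold 0.05. DESeq2 1.42.0, other filters and scalings, libraries left out, clone 4 alone, a replicate block and clone as a term were alternatives. Of these fits, only the edgeR fit on condition alone was also run on simulated data. Log2 CPM used a prior count of 2, and values per kb used the median length of a gene's GENCODE transcripts.

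The members and lists were chosen with earlier results of these data known. Besides the members, the genes named were the 3 most similar in pattern to Pramel5, Pramel6 and Pramel7, and from each list the most abundant gene and up to 3 genes with an unadjusted p under 0.05. Gm13102, Gm13083, Pramef6, Pramef12, Uhrf1, Cul2, Stat3, Elob, Rbx1, Cdx2, Krt8, Tfap2c, Foxa2, Sox7, Klf2, Fgf4 and Nanog were added after their values were seen. The same holds for the oocyte genes Zp1, Zp2, Nlrp5, Nlrp14, Npm2, Zar1 and Padi6. Sums with the copy Gm13102 and the motifs were also chosen after seeing the data.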

Additional observations from a re-analysis of the deposited data

Results flagged for a closer look

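Gm13083 (now Pramel21), another Prame family gene, had 1 tamoxifen library far from the others. It had 34 counts (0.826 CPM) in tamoxifen clone8_2 and 5, 3 and 4 counts (0.118, 0.129 and 0.145 CPM) in tamoxifen clone4_1, clone4_2 and clone8_1. The gap to the nearest library was 0.963 of the range over the 4 libraries, above Dixon's critical value, which chance passes in about 1 in 20 groups. The gene was flagged for this gap and its counts are low, so nothing is read from passing that value. The vehicle libraries had 12, 8 and 13 counts.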

How the results depend on the processing

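Pramel4 and Pramel5 kept a log2 fold change below 0 between tamoxifen and vehicle in all alternatives run, between -0.80 and -0.55 (18 alternatives) and between -0.91 and -0.65 (17). Since neither gene overlapped between the groups, leaving libraries out was no test of that sign. Pramel6 ranged from -0.41 to -0.03, the latter from clone 4 alone, and Pramel7 from -0.57 to -0.20. Pramel1 changed sign: 0.50 with a replicate block, 0.36 with clone as a term, 0.43 as a difference of mean log2 CPM with a prior count of 0.5, and -0.45 to 1.16 with single libraries left out. Equal numbers did not pair the libraries (r of their deviations 0.01, 0.02 and -0.07 over 16248 genes), and the replicate block left 0 genes called.

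Between tamoxifen and vehicle, DESeq2 called 4 genes and edgeR called 2 without both libraries numbered clone8_1. Between clones, 28 genes were called without a filter and 13 by DESeq2. The interaction, 514 genes, gave 991 without a filter, 1016 with DESeq2 and 52 to 695 with single libraries left out (52 without tamoxifen clone4_2, 107 without tamoxifen clone4_1 and 267 without vehicle clone4_1); it could not be estimated without vehicle clone8_1. The cause was not tested.

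The log2 difference of clone 8 against clone 4 changed sign for 4 members. With single libraries left out it was -0.29 to 0.068 for Pramel4, -0.15 to 0.15 for Pramel5, -0.21 to 0.19 for Pramel6 and -0.14 to 0.15 for Pramel7. Without both libraries numbered clone8_1 it was 0.18, 0.17, -0.079 and -0.15 in the same order, and with DESeq2 or its size factors 0.006 for Pramel5. The adjusted p stayed at 0.791 or above in these edgeR and DESeq2 fits, Pramel1 included. Low counts limit Pramel1 (12 to 65 per library), and shared sequence limits Pramel4.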
